A study of Homo sapiens with 4 samples.

Results

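The genes described here are 10 that mark or drive the mesenchymal state of epithelial cells, found by their symbols among the 53826 entities (genes, pseudogenes and small RNAs) of each expression table. They are 6 transcription factors, SNAI1, SNAI2, ZEB1, ZEB2, TWIST1 and RREB1, the intermediate filament gene VIM, the N-cadherin gene CDH2, and the matrix genes FN1 and SPARC. Each symbol was found once. RNA was sequenced from PK-1, a well-differentiated human pancreatic ductal adenocarcinoma cell line, made to express SPRR1A, a small proline-rich protein of the squamous cell envelope. In the stable model the cells carried a pMXs retroviral vector with FLAG-tagged SPRR1A or with the red fluorescent protein DsRed. In the transient model they received a pCAG plasmid with FLAG-tagged SPRR1A or with green fluorescent protein, GFP. With 1 library for each of the 4 conditions, differences have no replicate check, and no error or p-value can be given. The models differ in vector, fluorescent control protein, way of delivery and culture history, and these cannot be told apart in a comparison between models.

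In epithelial-mesenchymal transition (EMT), epithelial cells loosen their E-cadherin junctions, exchange keratin for vimentin filaments and lay down a fibronectin-rich matrix. Transcription factors of the Snail, ZEB and Twist families bring this about, largely by repressing epithelial genes, and transforming growth factor beta (TGF-beta) is a classical inducer. RREB1 is a RAS-responsive factor that works with SMAD proteins to switch on SNAI1 and fibrogenic genes in pancreatic cancer cells. The microRNAs of the miR-200 family hold ZEB1 and ZEB2 mRNA down in epithelial cells, and the ZEB proteins in turn repress the miR-200 genes.

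Levels are log2 of TPM, a measure of transcripts scaled to library total and to transcript length, so that genes can be set beside each other. A value of 0 in these tables is a floor and stands for a TPM of 1 or less. Between 12964 and 13558 entities per library lay above it. SPRR1A itself stood at 10.93 (log2 TPM) in the stable SPRR1A library and at 0.75 in the stable DsRed library. It reached 16.60 in the transient SPRR1A library against 3.56 with GFP, and took 9.92% of all TPM there, against 0.196% in the stable SPRR1A library. The labelled cell type was checked by its markers. KRT7, a duct keratin, lay between 12.20 and 12.82 and EPCAM, an epithelial adhesion protein, between 8.88 and 9.16 (log2 TPM), while MUC1, a mucin and also a duct marker, was at 0 with stable DsRed and no higher than 0.90 elsewhere. Of the markers of other cells, 11 of 14 fibroblast markers and 5 of 6 endothelial and leukocyte markers were listed at 0 in all 4 libraries. Most entities were so listed, as only 13944 of all 53826 lay above the floor in any library.

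The sequences that bear on these genes are shown first. For CDH2, VIM, SNAI1 and RREB1 RT-PCR primers were also designed, and they show which stretch of each transcript that assay reads. All lie in coding exons of the transcript chosen as representative (MANE Select, GENCODE 44, hg38), and each pair lies in neighbouring exons and matched transcripts of no other gene.
CDH2 forward, exon 4, chr18:28011925-28011946: agcacagtggccacctacaaag
CDH2 reverse, exon 5, chr18:28009812-28009831: cagctcctggcccagttaca
VIM forward, exon 5, chr10:17233879-17233898: aaagtgtggctgccaagaac
VIM reverse, exon 6, chr10:17234694-17234713: agcctcagagaggtcagcaa
SNAI1 forward, exon 1, chr20:49983098-49983119: caatcggaagcctaactacagc
SNAI1 reverse, exon 2, chr20:49983909-49983928: agtcccagatgagcattggc
RREB1 forward, exon 9, chr6:7226584-7226603: ttcaattcctgctggcttcc
RREB1 reverse, exon 10, chr6:7229036-7229055: tcgcagacaaaacggtgttg
The products are 162 bp for CDH2, 74 bp for VIM, 149 bp for SNAI1 and 132 bp for RREB1. CDH2 and RREB1 are long transcripts, of 16 and 13 exons, of which the assay reads a pair of neighbouring ones.

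The miR-200 family falls into 2 groups by its seed, the bases 2 to 8 that pair with a target (in capitals; RefSeq, GRCh38.p14).
miR-200b-3p: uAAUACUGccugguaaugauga
miR-200c-3p: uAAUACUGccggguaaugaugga
miR-429: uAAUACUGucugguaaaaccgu
miR-200a-3p: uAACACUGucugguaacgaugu
miR-141-3p: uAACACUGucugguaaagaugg
miR-205-5p: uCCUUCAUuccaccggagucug
The last is not of the family but is known for acting on ZEB mRNAs as well. The DNA letters that match the first 2 seeds are CAGTATT and CAGTGTT, and they were searched on the sense strand of the stretch after the stop codon of each member. The stretch of ZEB1 is 2540 bases long and held 6 and 3 matches. That of ZEB2 is 5370 bases long and held 5 and 4. Among 2545 other genes whose stretch was 0.8 to 1.25 times as long as that of ZEB1, 27.2% and 29.1% held at least 1 match. For ZEB2 the shares were 46.7% and 51.9% of 1208. At least 6 and 3 matches were held by 0.0% and 0.629% of the genes compared with ZEB1. At least 5 and 4 were held by 0.0% and 1.16% of those compared with ZEB2. FN1 held 2 matches to CAGTATT and SNAI2 held 1, and the other 6 members held neither. By the same rule of length, 0.189% of 2122 genes held at least 2 such matches for FN1. For SNAI2, 12.3% of 2426 held at least 1. The first match of each kind is shown with 11 bases on either side, the match in capitals.
ZEB1, chr10:31527622-31527650, plus strand: ttttatcttatCAGTATTatcactcttat
ZEB1, chr10:31528035-31528063, plus strand: atcatcagaatCAGTGTTtgtgattgtgt
ZEB2, chr2:144389042-144389070, minus strand: ctaccatacatCAGTATTtttattattat
ZEB2, chr2:144389226-144389254, minus strand: aaaattttgtaCAGTGTTaaggcctaaaa
A match is a run of letters and does not show that the microRNA binds there.

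**Figure D1:**
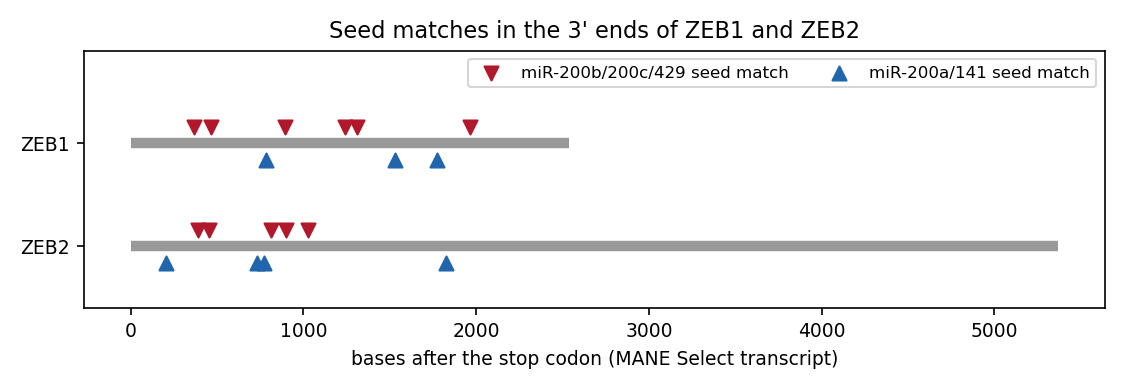
Positions of the miR-200 seed matches after the stop codon of ZEB1 and ZEB2, as distance in bases from the stop codon (x axis), by seed group. ZEB1 holds 6 and 3 matches and ZEB2 holds 5 and 4.

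Of the 10 genes, 5 were listed at 0 in all 4 libraries, namely CDH2, ZEB1, ZEB2, TWIST1 and SPARC. The other 5, VIM, SNAI1, SNAI2, RREB1 and FN1, were above the floor in all 4. Among all 53826 entities, 13944 were above the floor in at least 1 library. A gene listed at 0 may still be transcribed at a TPM of 1 or less, and since TPM keeps no read depth, no tighter limit can be set. PK-1 cells thus had, at this floor, mRNA of SNAI1 and SNAI2 without that of the ZEB pair or TWIST1, and vimentin mRNA without that of N-cadherin. Where a bulk level differs between libraries, a change in the share of cells that express a gene and a change in RNA per cell cannot be told apart.

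**Figure D2:**
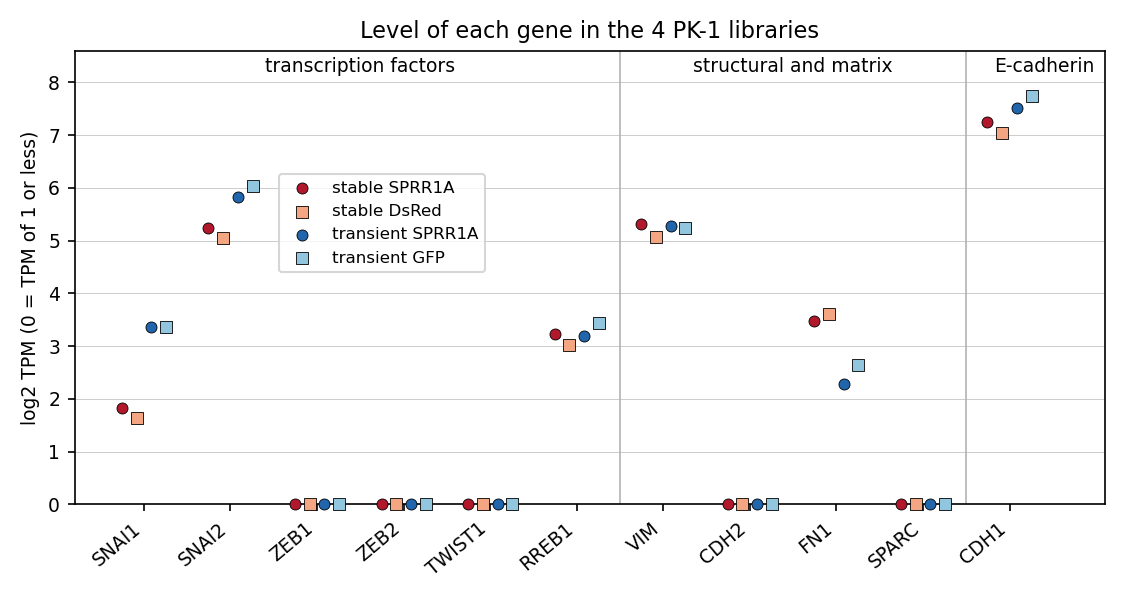
Levels of the 10 genes, and of CDH1 for scale, as log2 TPM (y axis), with 1 point per library. CDH2, ZEB1, ZEB2, TWIST1 and SPARC lie at 0 in all 4 libraries, SNAI1 is higher and FN1 lower in both transient libraries, and VIM stays between 5.08 and 5.32.

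Among the transcription factors, SNAI1, the Snail protein that represses E-cadherin (chr20:49982980-49988886 in GRCh38.p14), stood at 1.84 in the stable SPRR1A library, 1.63 with stable DsRed, 3.37 with transient SPRR1A and 3.37 with GFP (log2 TPM). In TPM these are 3.57, 3.10, 10.3 and 10.3. Both transient libraries were high and both stable libraries low, while the SPRR1A library and its control differed less within each model. Such a lack of overlap between models was common, at 59.7% of all entities above the floor in any library. SPRR1A differed from its control by 0.21 (stable) and 0.00 (transient). The transient GFP library exceeded the stable DsRed library by 1.74, or 3.34-fold, and the transient SPRR1A library exceeded the stable SPRR1A library by 1.54, or 2.90-fold.

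SNAI2, the Slug protein, which shares the zinc finger repressor design of Snail, was the more abundant of the pair. It stood at 5.24 with stable SPRR1A, 5.06 with stable DsRed, 5.84 with transient SPRR1A and 6.03 with GFP (log2 TPM). It followed the order of SNAI1 between models, but no difference passed 2-fold. SPRR1A differed from control by 0.19 in stable cells and by -0.20 after transient transfection. The transient GFP library lay 0.98 above stable DsRed, just inside the 2-fold threshold at 1.97-fold, and the transient SPRR1A library lay 0.59 above stable SPRR1A. In TPM, SNAI2 was 10.6 and 10.7 times as abundant as SNAI1 in the stable SPRR1A and DsRed libraries, and 5.52 and 6.33 times in the transient SPRR1A and GFP libraries. The excess of SNAI2 over SNAI1 was thus smaller in both transient libraries.

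RREB1 (chr6:7107743-7251980) stood at 3.23 with stable SPRR1A, 3.01 with stable DsRed, 3.19 with transient SPRR1A and 3.44 with GFP (log2 TPM). Its range over the 4 libraries was narrow and the models overlapped. SPRR1A differed from control by 0.21 in stable cells and by -0.25 after transient transfection, and between models the differences were 0.43 for the controls and -0.04 for the SPRR1A libraries. RREB1 was 2.62 and 2.61 times as abundant as SNAI1 in the stable libraries, and 0.883 and 1.05 times in the transient SPRR1A and GFP libraries.

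ZEB1 (chr10:31318417-31529804), ZEB2 (chr2:144384081-144520119) and TWIST1 (chr7:19113047-19117636) were at the floor throughout. ZEB1-AS1, an antisense RNA whose locus overlaps the start of ZEB1, was above it, at 0.94 and 0.87 in the stable SPRR1A and DsRed libraries and 1.45 and 1.82 in the transient ones (log2 TPM). ZEB2-AS1 was listed at 0 in all 4. The libraries were made with a kit that keeps strand, but whether the counting used it is not given in the sources used here, so reads from the overlap of a gene and its antisense partner may not be told apart.

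VIM, the mesenchymal intermediate filament (chr10:17228241-17237593), was the steadiest of the 5 expressed members. It stood at 5.32 with stable SPRR1A, 5.08 with stable DsRed, 5.28 with transient SPRR1A and 5.23 with GFP (log2 TPM), or 40.1, 33.7, 39.0 and 37.6 TPM. The stable SPRR1A library was highest and its DsRed control lowest. The 2 SPRR1A differences were 0.25 and 0.05, and the differences between models were 0.16 and -0.04. VIM exceeded between 67.5% and 71.9% of the entities detected over the floor in a library. KRT18, a keratin of simple epithelia, was 187, 233, 135 and 149 times as abundant in TPM, in the same order of libraries. VIM-AS1, an antisense RNA whose locus overlaps the start of VIM, stood at 1.10, 0.57, 0.76 and 0.34 in that order (log2 TPM). Reads from this overlap, too, may not be told apart.

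CDH2, the cadherin that replaces E-cadherin in classical EMT (chr18:27932879-28177130), was listed at 0 in all 4 libraries. CDH1, the E-cadherin gene, stood at 7.26 with stable SPRR1A, 7.03 with stable DsRed, 7.51 with transient SPRR1A and 7.75 with GFP (log2 TPM). Its SPRR1A differences were 0.22 and -0.24, and it was higher in both transient libraries by 0.71 for the controls and 0.25 for SPRR1A. CDH1 and its repressors SNAI1 and SNAI2 were thus each higher in the transient libraries. CDH1 exceeded VIM 3.82-fold, 3.89-fold, 4.67-fold and 5.70-fold in TPM, in the same order of libraries.

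FN1, the gene of fibronectin (chr2:215360865-215436068), differed between models in the direction opposite to SNAI1. It stood at 3.47 with stable SPRR1A, 3.62 with stable DsRed, 2.29 with transient SPRR1A and 2.64 with GFP (log2 TPM). Both stable libraries were high and both transient libraries low, where 59.7% of all entities were likewise without overlap between models. The SPRR1A library was the lower of each pair. SPRR1A differed from control by -0.14 in stable cells and by -0.35 after transient transfection. The transient GFP library lay 1.97-fold below stable DsRed (-0.98), and the transient SPRR1A library 2.28-fold below stable SPRR1A (-1.19). ATIC, a purine synthesis gene whose locus overlaps the end of FN1, lay between 6.65 and 6.91 (log2 TPM). SPARC, a collagen-binding matrix protein of fibroblasts (chr5:151661096-151686915), was at the floor throughout.

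**Figure D3:**
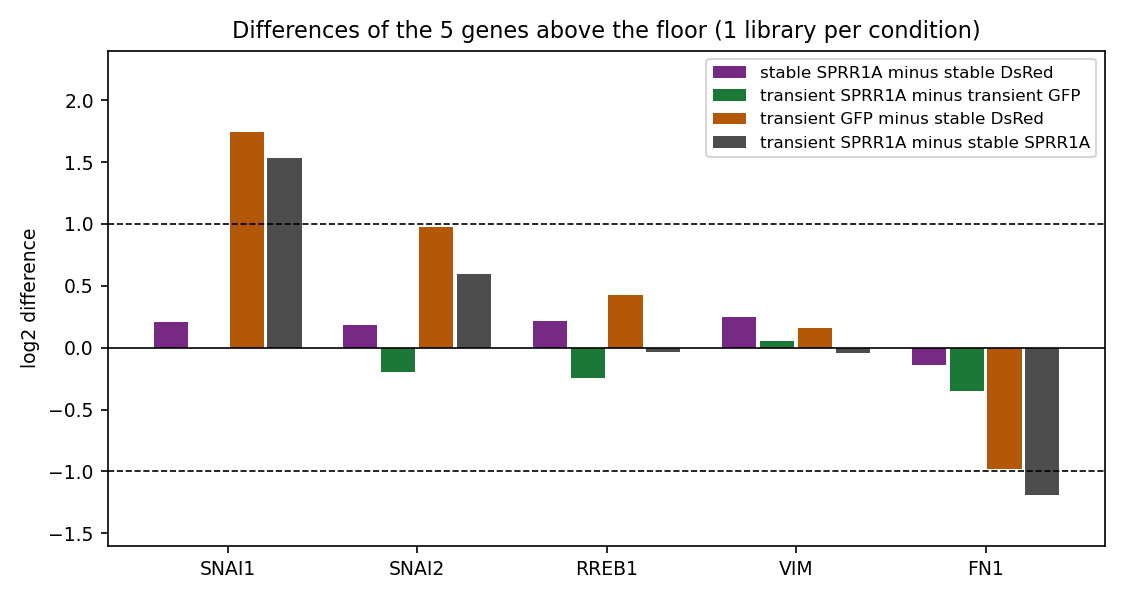
Differences in log2 TPM (y axis) of the 5 genes above the floor in each of the 4 comparisons, 1 library against 1. The dashed lines mark 2-fold, which SNAI1 passes in both comparisons between models and FN1 in the comparison of the SPRR1A libraries.

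The first question is whether SPRR1A moved these genes. In the stable model, 0 of the 5 members above the floor differed by more than 2-fold, where 0.947% of all entities above the floor in either library did so. With the smaller threshold of 0.5 on the log2 scale, over entities whose TPM was 5 or more in each library of the pair, again 0 passed, against 1.14% of all. The members' median difference was 0.21, with a range from -0.14 to 0.25, beside a median of 0.07 over all entities above the floor. In the transient model 0 of 5 passed 2-fold, against 0.889% of all, and 0 passed the smaller threshold, against 1.17%. Here the median was -0.20, with a range from -0.35 to 0.05, beside -0.19 over all entities. The negative values of SNAI2 (-0.20) and RREB1 (-0.25) in the transient model thus lie close to the shift of all entities. With SPRR1A left out of the library total they become -0.048 and -0.097, and centred on the median of all well-expressed entities -0.016 and -0.065. FN1 was below control in both models, and in the transient one its -0.35 becomes -0.20 and -0.17 under the same alternatives. VIM was above control in both models, and in the transient one its 0.05 becomes 0.20 and 0.23. The transient 0.00 of SNAI1 becomes 0.15 and 0.18.

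The second question is how the models differ. Between the controls, 1 of 5 members, SNAI1, was higher by more than 2-fold in the transient library and 0 were lower, against 7.52% of all entities past 2-fold. Past the smaller threshold lay 3 of the 5, SNAI1, SNAI2 and FN1, against 20.6% of all that met its TPM minimum. Between the SPRR1A libraries, SNAI1 was higher and FN1 lower by more than 2-fold, against 3.59% of all, and the same 3 passed the smaller threshold, against 12.0%. SNAI1 does not itself meet the TPM minimum of that background, nor does FN1 in the transient SPRR1A library. The members' medians were 0.43 and -0.04, beside 0.18 and -0.08 over all entities above the floor. Of 1696 entities within 0.5 (log2 TPM) of the mean level of SNAI1, 11.4% were higher by more than 2-fold in GFP than in DsRed. Between the SPRR1A libraries, 3.37% of 1719 entities near SNAI1 were higher and 0.691% of 1880 near FN1 were lower by as much. SNAI1 and SNAI2 were higher and FN1 lower in both transient libraries than in both stable libraries, while VIM and RREB1 overlapped. Of all entities that lay over the floor in any library, 59.7% were likewise without overlap between models. Every library enters 2 of the 4 comparisons, so their values are not independent.

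**Figure D4:**
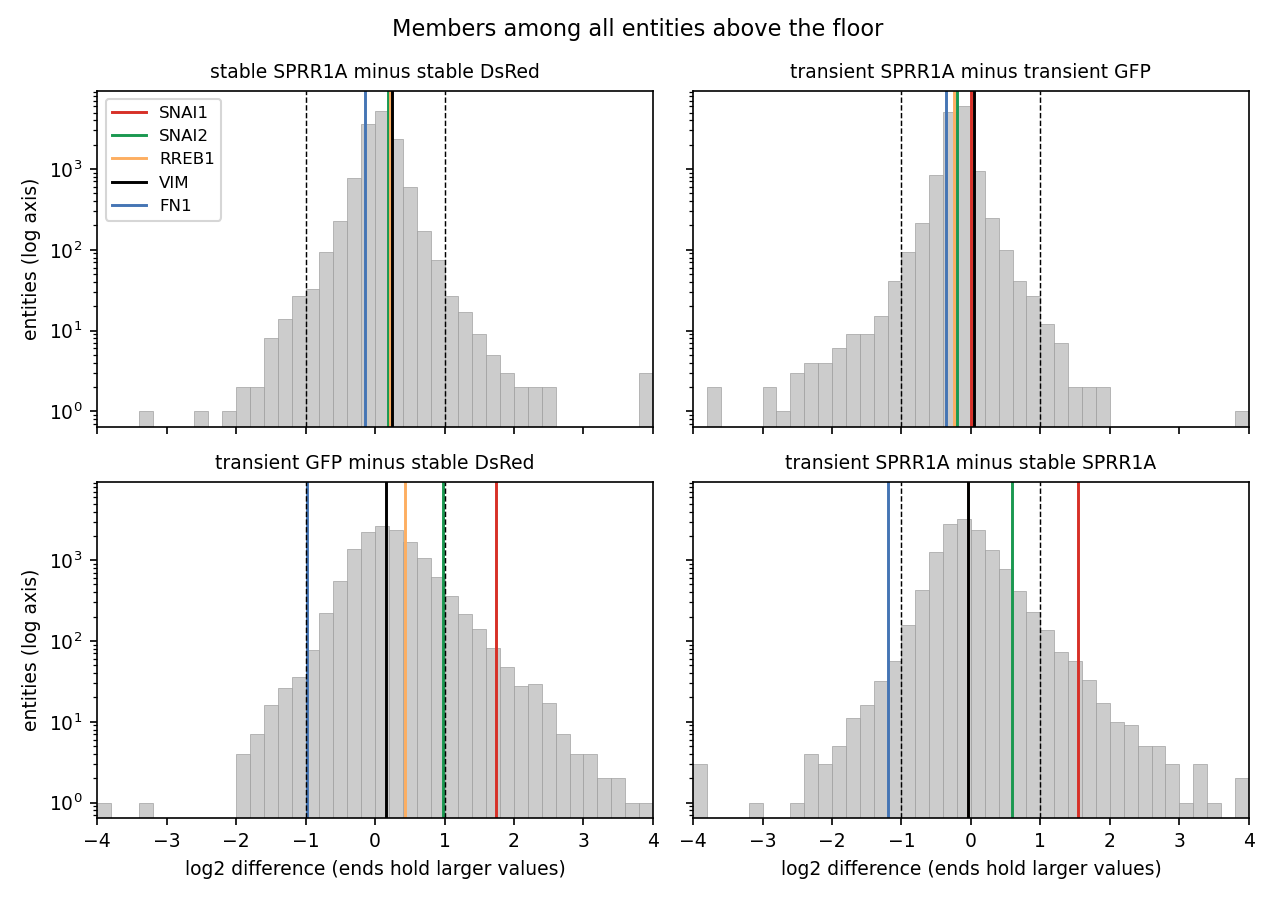
Numbers of entities above the floor in either library (y axis, log scale) by log2 difference (x axis, the end bins holding larger values), 1 panel per comparison, with a coloured line for each of the 5 expressed members and dashed lines at 2-fold. With SPRR1A the 5 lie between -0.35 and 0.25, and between models they spread from -1.19 to 1.74.

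The genes most like a member over the 4 libraries were sought among 9555 entities whose TPM was never under 5, by the root mean square difference of levels centred on each gene's mean. For VIM these were CEP128 (0.011), ST20-AS1 and RBM26, for SNAI2 PIP5K1A (0.011), GOLPH3L and NRBF2, and for RREB1 GOLPH3 (0.0036), LUC7L2 and RINT1. With 4 libraries such likeness is common. As many as 2303 entities lay within 0.1 of RREB1, 890 of VIM and 274 of SNAI2.

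Around the members, other genes of the same programme were counted. Of 26 epithelial genes, 25 were above the floor somewhere, with medians of 0.04 and -0.19 in the stable and transient SPRR1A comparisons. In these, 0 passed 2-fold, against 0.947% (stable) and 0.889% (transient) of all entities, so that 0 in a short list says little. Between models, 7.52% (controls) and 3.59% (SPRR1A libraries) of all entities passed 2-fold. In this list OVOL1, a repressor of mesenchymal fate, was the single gene to do so. It stood at 1.66 and 1.55 in the stable SPRR1A and DsRed libraries and at 2.81 and 2.57 in the transient SPRR1A and GFP libraries (log2 TPM). The keratins KRT18 and KRT8 were the most abundant, at 12.36 to 12.94 and 12.23 to 12.76. Of 13 other EMT transcription factors, 6 were listed at 0 in all 4 libraries, TWIST2 among them. Past 2-fold with SPRR1A were 0, against 0.947% (stable) and 0.889% (transient) of all entities. SNAI3, the third Snail gene, ranged from 0.29 to 1.37 and was higher by 1.08 in GFP than in DsRed, but by 0.56 between the SPRR1A libraries, which is inside 2-fold. HMGA2, a chromatin protein, and SOX9, a duct progenitor factor, led this list, at 5.83 to 6.06 and 5.46 to 5.66.

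Of 18 TGF-beta pathway genes, 17 were above the floor somewhere and 0 passed 2-fold with SPRR1A, with medians of 0.05 and -0.25. The shares of all entities past 2-fold were 0.947% (stable) and 0.889% (transient). SMAD4, a protein that joins activated SMAD proteins, was listed at 0 in all 4 libraries. It is named after its values were seen, and whether the gene is lost or silent in these cells or its reads were lost in processing was not tested. ID1, a target of bone morphogenetic proteins, lay between 7.36 and 7.91 (log2 TPM). ID2, an inhibitor of helix-loop-helix factors, was listed at 0 in both stable libraries and stood at 1.37 with transient SPRR1A and 1.27 with GFP. TGFB3, a ligand, stood at 0.62 with stable SPRR1A, at 0 with DsRed, and at 0.67 and 1.03 in the transient SPRR1A and GFP libraries.

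Beside SNAI1, the fibrogenic targets of RREB1 held IL11, a cytokine of the IL-6 family, which was also higher in both transient libraries. A lack of overlap between models was found for 59.7% of all entities above the floor in any library. IL11 was listed at 0 in both stable libraries and stood at 2.15 with transient SPRR1A and 2.42 with GFP (log2 TPM). PDGFB, a growth factor for fibroblasts, lay between 4.86 and 5.06, and HAS2 and CCN4 were listed at 0 in all 4. Of 16 matricellular and fibronectin receptor genes, 13 were above the floor somewhere. Past 2-fold with SPRR1A were 0, against 0.947% (stable) and 0.889% (transient) of all entities. Past 2-fold higher were 4 of 13 in GFP against DsRed, where 7.52% of all entities passed in either direction, and 2 of 12 between the SPRR1A libraries, against 3.59%. SPP1, osteopontin, stood at 2.09 and 1.23 in the stable SPRR1A and DsRed libraries and at 4.02 and 4.37 in the transient ones. ITGA5, the alpha chain of the fibronectin receptor, stood at 2.69, 2.38, 3.88 and 3.93 in the same order. It was thus higher in the transient libraries, in which FN1 was lower. ITGAV, another integrin chain, and CCN1, a matricellular protein, were higher by 1.04 and 1.03 between the controls but by 0.43 and 0.74 between the SPRR1A libraries. Centring the control comparison, which subtracts 0.12, takes ITGAV and CCN1 below 2-fold, as it does OVOL1, SNAI3 and TGFB3. The 12 corepressors and regulators of the Snail and ZEB factors were all above the floor, with 0 past 2-fold in the 4 comparisons. Of all entities, between 0.889% and 7.52% passed in a comparison. HDAC1, a histone deacetylase, lay between 7.81 and 7.92 and CTBP1, the corepressor of ZEB proteins, between 6.62 and 7.12.

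**Figure D5:**
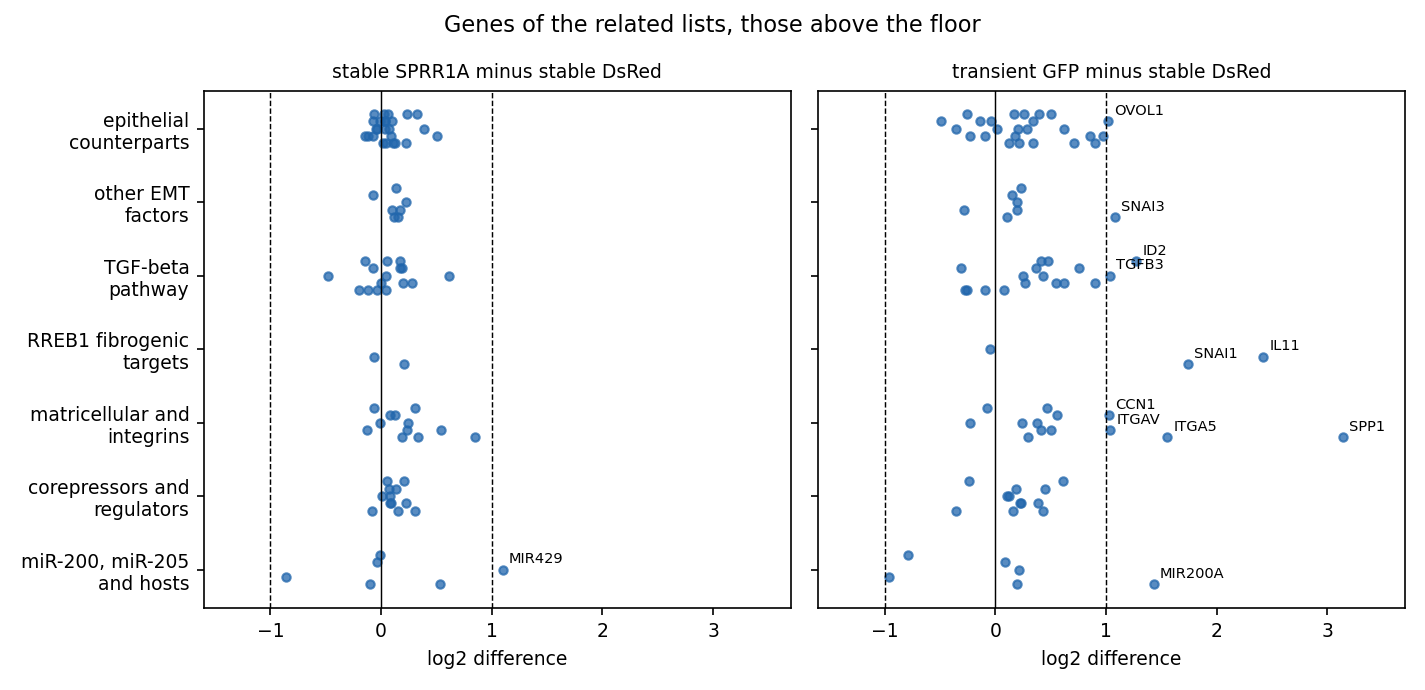
Log2 differences (x axis) of the genes of 7 related lists, 1 point per gene above the floor in either library, for stable SPRR1A against DsRed and for GFP against DsRed. Dashed lines mark 2-fold, and genes at 0 in 1 library are drawn against the floor. MIR429 (1.10) is past it in the first comparison, and SPP1 (3.14), IL11 (2.42) and SNAI1 (1.74) lie farthest to the right in the second.

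For the miR-200 family the tables hold the precursor genes, which in an mRNA library do not measure the mature microRNA. MIR429 stood at 3.13 with stable SPRR1A, 2.04 with DsRed, 3.16 with transient SPRR1A and 2.25 with GFP (log2 TPM). It was higher with SPRR1A by 1.10 in stable cells, where 0.947% of all entities passed 2-fold. After transient transfection it was higher by 0.91, which is inside 2-fold. Centring the transient comparison, which subtracts -0.18, takes this difference past 2-fold. The TPM of MIR429 was under 5 in both controls, at 4.10 with DsRed and 4.76 with GFP. MIR141 went the other way in stable cells, at 0.10 with SPRR1A and 0.96 with DsRed, and was at 0 in both transient libraries. Over the list, which also holds MIR205 and the host RNAs, the median was -0.02 in stable cells and 0.28 after transient transfection. In stable cells 4 of 6 genes were lower. Besides MIR141 these were MIR205 (-0.04), MIR205HG (-0.10) and MIR200CHG (-0.006). MIR205 and MIR205HG are not of the miR-200 family. The neighbours of MIR429 on chromosome 1 lay near the floor. MIR200B stood at 0.53 and 0.96 with stable and transient SPRR1A and at 0 in both controls, whereas MIR200A was at 0 in both stable libraries and at 0.97 and 1.43 in the transient SPRR1A and GFP libraries. MIR200CHG, the host RNA of miR-200c and miR-141, lay between 3.26 and 4.04 and MIR205HG, that of miR-205, between 7.18 and 7.48.

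Among markers of other cells, the summed TPM of the 14 fibroblast genes was 10.1 with stable SPRR1A, 7.71 with DsRed, 9.14 with transient SPRR1A and 10.9 with GFP, of which COL1A1, ACTA2 and TAGLN were above the floor. COL1A1, ACTA2 and TAGLN lay near the floor, from 0.56 (ACTA2, stable DsRed) to 2.62 (COL1A1, GFP) in log2 TPM. Whether other cells bear on the levels of SNAI1 or FN1 was not tested. CD68, a lysosomal protein that marks macrophages, stood at 4.09 and 3.99 in the stable SPRR1A and DsRed libraries and at 4.91 and 4.89 in the transient SPRR1A and GFP libraries (log2 TPM), while the leukocyte antigen PTPRC was at 0 in all 4.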

How the data were processed

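Total RNA of 4 PK-1 cultures, 1 per condition, was sequenced in pairs after stranded mRNA library preparation. The authors used Strand NGS and a human transcriptome of build hg38 for alignment and deposited log2 TPM per entity, with a floor at 0 (a TPM of 1 or less). TPM keeps no read depth, so no counting interval is given. Differences of the deposited log2 values were taken in 4 comparisons, and no test was run. A 2-fold threshold was used, after the study's methods, with a second one of 0.5 for entities at TPM 5 or more in each library. The members and the gene lists were chosen with earlier results of these data known. Named are all members, the 2 most abundant genes of a list, genes past 2-fold (up to 6 a list), CDH1, SNAI3, TWIST2, SPRR1A and the 3 genes most like a member. Some genes that this rule names are not reported here. Exceptions are said to be so or are values given as context (overlapping genes, precursors, markers). Gene positions and microRNAs came from RefSeq (GRCh38.p14) and transcripts from GENCODE 44. Python 3.11.15, numpy 2.4.6, pandas 2.3.3 and matplotlib 3.10.9 were used, and the calculations were tested on simulated data. The 6 alternatives changed the pseudocount, floor, filter or scaling.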

Additional observations from a re-analysis of the deposited data

How the results depend on the processing

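Of 115 differences of single genes recomputed under 6 alternatives, 114 stayed on the same side of 2-fold, 1 newly passed and 0 turned a called direction. Centring each comparison on the median of entities at TPM 5 or more in each library subtracts 0.06 in the stable and -0.18 in the transient SPRR1A comparison, 0.12 between controls and -0.11 between SPRR1A libraries. FN1 then passes 2-fold between the controls (-1.10), which makes 2 members, 1 higher and 1 lower. The median difference of members becomes -0.016 in the transient SPRR1A comparison, 0.30 between controls and 0.079 between SPRR1A libraries. Below 2-fold, SNAI1, at 0.00 in the transient SPRR1A comparison, becomes 0.18, and VIM and RREB1 between SPRR1A libraries turn from -0.04 to 0.07 and 0.08. Leaving SPRR1A out of the total, of which it takes 9.92% in 1 library, gives medians of -0.048 in the transient SPRR1A comparison and 0.11 between SPRR1A libraries. With that TPM minimum as a filter, SNAI1 drops out of both comparisons between models and FN1 out of the second, so 0 members pass in either, and the median between controls becomes 0.29. No paired analysis was possible because no condition had a second library, and for the same reason no library could be left out in turn.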

Other observations

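A list of 16 genes often used for a partial EMT state was added after the data had been seen and is given as values only. Of these, 14 were above the floor somewhere, with medians of 0.18 and -0.18 in the stable and transient SPRR1A comparisons. Past 2-fold in these were 0, against 0.947% and 0.889% of all entities. LAMB3, a laminin chain of the basement membrane, lay at 7.79 to 8.44 (log2 TPM), and the membrane protease MMP14 at 7.20 to 7.72. The hyaluronan receptor CD44 lay at 8.62 to 8.95 and the receptor kinase AXL at 7.04 to 7.56. Each of these exceeded VIM in all 4 libraries, while PDPN and CDH13 were listed at 0 in all 4.

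Between the controls, 1 of 14 genes of this list was higher and 1 lower by more than 2-fold, against 7.52% of all entities in either direction. Between the SPRR1A libraries 0 of 14 were higher and 1 was lower, against 3.59%. The adhesion gene L1CAM stood at 0.79 with stable SPRR1A, at 0 with DsRed, and at 1.19 and 1.36 in the transient SPRR1A and GFP libraries. MMP10, a stromelysin, stood at 2.33 and 2.72 in the stable SPRR1A and DsRed libraries and at 1.64 and 1.51 in the transient ones. S100A4, a calcium-binding protein also called fibroblast-specific protein, stood at 4.24, 3.66, 3.06 and 3.34 in the same order and differed by -1.18 between the transient and the stable SPRR1A library.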
